A study of Homo sapiens with 8 samples.

Results

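The regions described here are 324 peaks of RFX7 binding in Nutlin-3a-treated cells that stood alone on the chromosome and away from the ends of protein-coding genes. They are called isolated distal peaks, and they were chosen by their own measured positions in the peak lists. A peak was isolated when fewer than 5 other regions of the pooled peak lists had a summit within 500 kb of its own, and distal when its summit lay more than 1000 bp from both ends of every protein-coding RefSeq gene. These 324 were taken from the 1234 peaks of the Nutlin-3a list. Of the others, 101 were isolated but lay at a gene end and 809 were clustered.

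The cells were RPE-1, an established human line of retinal pigment epithelium. They had received 10 µM Nutlin-3a, which blocks the binding of MDM2 to p53 and so raises p53, or DMSO as the solvent control, each for 24 h. RFX7 chromatin immunoprecipitation with sequencing (ChIP-seq) and input chromatin were each collected from 2 samples per treatment, 8 samples in all. The values analysed were 1 peak list per treatment, 1234 peaks with Nutlin-3a and 556 with DMSO, so replicate error is unknown for every value and no test between treatments was possible. The labels do not say whether the 2 samples of a group came from separate cultures. Library depth is unknown from these lists.

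RFX7 belongs to the regulatory factor X family, whose winged-helix DNA-binding domain recognises the X-box, a motif made of a pair of inverted half-sites. It acts as a transcriptional activator, and after p53 activation it has been linked to a set of growth-restraining genes. Binding outside gene ends can mark enhancers, starts of shorter transcripts inside a gene, or starts of non-coding RNAs.

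Sequence was taken from RefSeq for GRCh38.p14, which gives a window of 300 bp around listed transcript starts, 250 bp before and 50 bp from the start on. A total of 35116 windows of 27305 genes were used. All 324 peaks lay away from the outermost ends of protein-coding genes. Such a window was overlapped by 23 of them, against 99 of all 1234 Nutlin-3a peaks. Stretches with the fewest mismatches to a pair of inverted half-sites (GTTGCC, 0 to 3 bases, GGCAAC) inside a peak are shown because the motif is that of the factor itself. Of 21 peaks searched inside the peak, the best match had 2 mismatches for 3 peaks and 3 mismatches for 7 others. The share of all windows with a best match of 3 mismatches is not given. Matches with 3 mismatches are therefore not shown to be more frequent in these peaks than in other windows. Of these 7 peaks, the 3 with the largest fold enrichment are printed. Each is 30 bases long, 5′ to 3′ on the strand of the named gene, with the 12 letters compared in capitals.
ATF7IP, chr12:14416758-14416787, plus strand: cttcccttGTTGCTgGGCAAGgtttgtgac
LOC105371573, chr17:19362625-19362654, plus strand: acgccggcGTTGCCctAGAAACagacggcg
GBF1, chr10:102245495-102245524, plus strand: ctcgcgcaGTTACCaGGCAGCgggctagac
PIK3R3, chr1:46133025-46133054, minus strand: caggctccaGGCTCCGGCAACcggcctcag
ATOSA, chr15:52679463-52679492, minus strand: gcggcggcATTGCCatAGTAACcgggcgcc
BCAR1, chr16:75238828-75238857, minus strand: cgtgcctcGAGGCCcaGCCAACctgccacg

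The first 3 differed from this fixed pair at 2 of 12 letters and the other 3 at 3 letters. Other letters that the factor may accept were not scored, so this order does not rank the stretches as binding sites. The middle of the stretch lay 15 bp from the peak summit for LOC105371573, a non-coding gene that faces an internal start of the ciliary gene B9D1. It lay 9 bp from the summit for GBF1, a guanine nucleotide exchange factor of the Golgi, and 39 bp for BCAR1, an adaptor protein of focal adhesions. For ATF7IP, PIK3R3 and ATOSA it lay 316, 346 and 285 bp away. The summits of these 3 peaks lay at 6.54, 6.50 and 16.3% of the width from the lower-coordinate edge. Among the 54 isolated distal peaks at least 300 bp wide, 17 had the summit in the lowest-coordinate 10% of the width. The highest 10% held 0. Distances from summits in wide peaks carry this one-sided placement, and its cause was not tested. The same count for the other wide Nutlin-3a peaks is not given, so the placement is not shown to be particular to these peaks. A match of these letters is a description and does not show that the site was bound.

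The single half-site GTTGCC, searched on both strands, occurred in a window of 5 of the 23 peaks (21.7%, 95% Wilson interval 9.66 to 41.9%) against 12.2% of all windows. Counted by window, 6 of 28 held it (21.4%). Among 76 isolated peaks at gene ends that overlapped a window, 23 had one that held it (30.3%, 21.1 to 41.3%). A pair of inverted half-sites with up to 2 mismatches, which can contain the single half-site, occurred in a window of 4 of the 23 peaks (17.4%). In 3 of the 4 the pair lay inside the peak. Counted by window, 4 of 28 held such a pair (14.3%), against 6.67% of all windows and 13 of 102 at gene-end peaks (12.7%). The half-site lay inside the peak in 3 of the 5 peaks, at PIK3R3, ATOSA and LOC105371573, and at USP30 and UVSSA the peak did not reach it. The sequence CCAAT, the motif bound by NF-Y, occurred on either strand in 19 of 28 windows (67.9%) against 34.6% of all windows, and in 69 of 102 windows at gene-end peaks (67.6%). The p53 half-site consensus was in 2 of 28 windows (7.14%) against 6.63% of all, and these 2 were overlapping windows of PIK3R3. Several windows can belong to 1 peak or overlap each other, and no difference between these shares was tested.

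The strongest isolated distal peak by fold enrichment overlapped a window at FPASL, a long non-coding RNA gene. Its 250 bases before the listed start held CCAAT on the minus strand at 2 places (capitals, read as ATTGG) and no GTTGCC. The stretch upstream of an internal ATOSA start held 1 GTTGCC and 1 CCAAT, and the 111 bases upstream of an internal GBF1 start that fell in its peak held CCAAT at 2 places, again in capitals.
FPASL, chr7:76317997-76318246, plus strand: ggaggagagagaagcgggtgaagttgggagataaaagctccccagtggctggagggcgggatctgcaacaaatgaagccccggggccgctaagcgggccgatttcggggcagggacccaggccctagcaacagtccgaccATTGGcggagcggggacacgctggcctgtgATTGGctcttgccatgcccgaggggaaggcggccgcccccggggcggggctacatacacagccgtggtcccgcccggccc
ATOSA, chr15:52652041-52652290, minus strand: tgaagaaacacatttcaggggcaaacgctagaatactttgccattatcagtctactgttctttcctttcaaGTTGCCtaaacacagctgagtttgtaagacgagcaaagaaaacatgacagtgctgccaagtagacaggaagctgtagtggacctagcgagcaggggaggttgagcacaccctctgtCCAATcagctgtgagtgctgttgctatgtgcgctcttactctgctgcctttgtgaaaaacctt
GBF1, chr10:102245421-102245531, plus strand: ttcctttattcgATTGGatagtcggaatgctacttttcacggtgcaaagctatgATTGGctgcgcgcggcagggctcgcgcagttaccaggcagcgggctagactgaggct

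The 324 isolated distal peaks had a median fold enrichment of 3.72 (interquartile range 3.09 to 4.97, lowest 1.44, highest 19.8), as the authors' peak list gives it. Their −log10 p had a median of 10.9 (7.49 to 24.5), and their width a median of 160 bp (109 to 229 bp, from 50 to 1170 bp). The median fold was 5.08 for the 101 isolated peaks at gene ends and 2.21 for the 809 clustered peaks. By −log10 p the medians of these groups were 27.2 and 29.7, both above that of the isolated distal peaks. Peaks at least 300 bp wide made up 54 of the 324 (16.7%), against 56 of 101 at gene ends (55.4%), 140 of 809 in clusters (17.3%) and 250 of all 1234 (20.3%), so their share was near that of the whole list. These are descriptions of peaks in 1 list, and the differences were not tested.

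**Figure D1:**
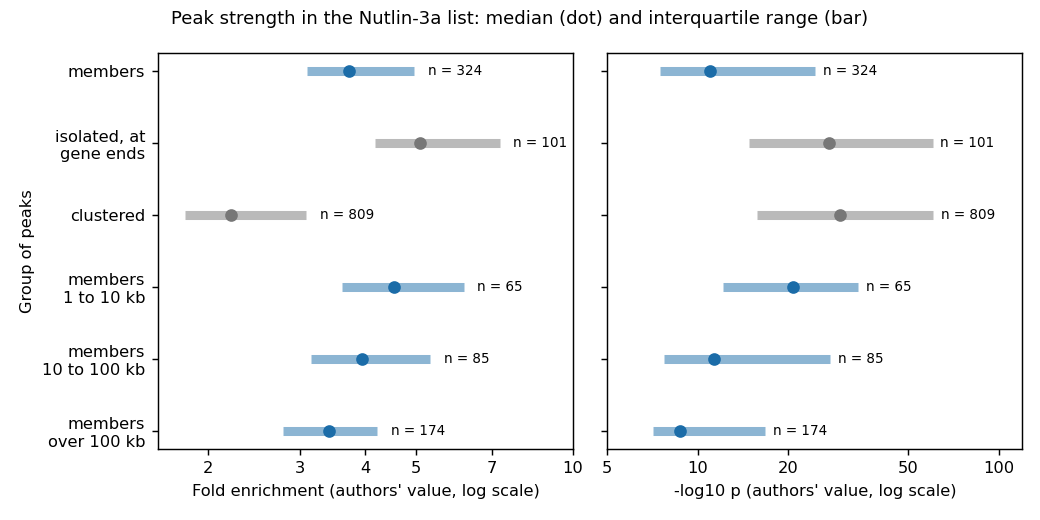
Median (dot) and interquartile range (bar) of the authors' fold enrichment (left) and −log10 p (right), on log axes, for the isolated distal peaks (members), for isolated peaks at gene ends, for clustered peaks and for the isolated distal peaks by distance to a protein-coding gene end. Median fold was 4.53, 3.94 and 3.41 from the nearest to the farthest distance group.

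Strength differed along the distance to the nearest protein-coding gene end. The 65 peaks 1 to 10 kb away had a median fold of 4.53 and a median width of 280 bp. The 85 peaks 10 to 100 kb away had 3.94-fold and 162 bp. The 174 peaks more than 100 kb away (53.7%, 48.3 to 59.1%) had 3.41-fold and 151 bp. Of all 1234 Nutlin-3a peaks, 863 were that far away (69.9%), a larger share. Medians of −log10 p in these groups were 20.8, 11.3 and 8.73. Of the nearest 65, 39 had their summit inside a protein-coding gene, 12 lay outside on the side of its start and 6 on the other side, with the strand of the gene not in the tables used for 8. Of all 324, 91 had their summit inside a protein-coding gene (28.1%, 23.5 to 33.2%), against 135 of all 1234 (10.9%) and 3 of 809 in clusters. Among the isolated peaks at gene ends the share was larger, 41 of 101 (40.6%, 31.5 to 50.3%). Whether the 91 summits fell in exons or introns was not analysed here.

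Wide and narrow isolated distal peaks differed in their distance from genes. The 54 peaks of at least 300 bp had a median of 5.69-fold, 7 of them were more than 100 kb from a protein-coding end, and 1 lay in the longest gene-free stretch of its chromosome, the longest run of bases without any annotated gene. The 43 peaks of 50 or 51 bp, the smallest width in the list being 50 bp, had a median of 4.62-fold. Of these 43, 31 were more than 100 kb from a protein-coding end (72.1%) and 17 were in such a stretch (39.5%). Over all 1234 Nutlin-3a peaks these shares were 69.9 and 40.4%, near those of the narrow peaks. Of the 40 isolated distal peaks with the largest fold, 21 were at least 300 bp wide and 8 were 50 or 51 bp wide. Only 18 of these 40 were also among the first 40 by −log10 p.

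**Figure D2:**
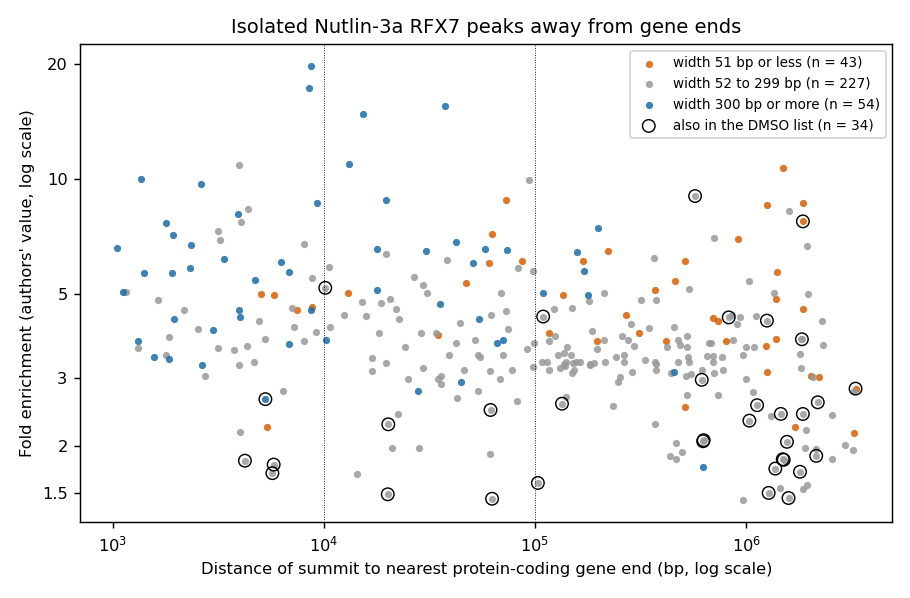
Fold enrichment (authors' value, log axis) of each of the 324 isolated distal peaks against the distance of its summit to the nearest protein-coding gene end (bp, log axis), coloured by peak width, with rings around the 34 peaks also found in the DMSO list (10.5%, against 27.3% of all Nutlin-3a peaks) and dotted lines at 10 and 100 kb. Peaks above 14-fold were all at least 300 bp wide and within 100 kb of a gene end, and most ringed peaks sit below 3-fold.

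The peak with the largest fold, 19.8 (−log10 p 128), was on chromosome 7 (76317875 to 76318371), with its summit 160 bp before the listed start of FPASL and 8712 bp from YWHAG, which codes for a 14-3-3 protein. The second, 17.3-fold (−log10 p 128), was on chromosome 19 (47241055 to 47241798), inside the non-coding gene LOC124904731. It lay 8470 bp outside the start end of BBC3, the p53 target that codes for the pro-apoptotic protein PUMA. The third, 15.5-fold, was on chromosome 11 (65487530 to 65487856), inside the non-coding gene LINC02736, 331 bp after its listed start. The fourth, 14.8-fold, was on chromosome 8 (102810711 to 102811110), inside the non-coding gene GASAL1 and 278 bp from its end, with AZIN1, an antizyme inhibitor gene of polyamine metabolism, 15358 bp away. These 4 peaks ranked 3, 4, 6 and 7 of the whole Nutlin-3a list by fold.

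The fifth, 10.9-fold (−log10 p 89.7), was on chromosome 1 (203327053 to 203327953), between FMOD, which codes for the matrix proteoglycan fibromodulin (13177 bp), and BTG2, an antiproliferative p53 target gene (17849 bp).

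The sixth, also 10.9-fold, was on chromosome 15 (92904240 to 92904491), inside CHD2, a chromatin remodeller gene. It contained the whole hairpin of MIR3175 (chr15:92904399-92904475, plus strand), and the mature miRNA is shown because its gene lies within the peak, with its seed, bases 2 to 8, in capitals.
hsa-miR-3175, chr15:92904408-92904429, plus strand: cGGGGAGAgaacgcagugacgu

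A second isolated distal peak of the same locus (chromosome 15, 92882447 to 92882753, 5.10-fold) had its summit 370 bp before the listed start of CHASERR, a long non-coding RNA that restrains CHD2, and 17851 bp from CHD2. The seventh by fold was 50 bp wide, with 4 other regions within 500 kb, and lay 1488094 bp from a protein-coding gene end (chromosome 9, 44443578 to 44443627, 10.7-fold, −log10 p 25.4). The eighth was 1360 bp from SHC3, a signalling adaptor gene (chromosome 9, 89180043 to 89180486, 9.96-fold). The ninth was 83 bp from an end of the non-coding gene LOC729218 and 93731 bp from METTL14, an RNA methyltransferase subunit gene (chromosome 4, 118591513 to 118591795, 9.92-fold).

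By −log10 p the leading peaks were others. The first, at 374, was on chromosome 9 (42900241 to 42900520) at 1.69-fold, inside LOC112268044. The fifth, at 145, was also on chromosome 9 (63066021 to 63066189) at 1.49-fold. Both overlapped DMSO peaks. The second, at 249, was on chromosome 13 (97432802 to 97433537, 3.76-fold), 1322 bp from RAP2A, which codes for a small GTPase. Its summit offset was 45 bp in a peak of 736 bp, and if the middle of the peak were taken it would lie within 1000 bp of RAP2A, the only one of the 324 to be lost in this way. The third, at 155, was on chromosome 6 (14210528 to 14211548, 6.51-fold), 73637 bp from CD83, an immune surface protein gene. The fourth, at 151, was 51 bp wide and 912404 bp from the nearest protein-coding end (chromosome 3, 92960623 to 92960673, 6.98-fold).

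Some of these peaks lay at annotated starts that the outer ends of protein-coding genes do not show. No window of chromosome 8 was used, which left 312 of the 324 peaks. Of these, 30 had a summit within 1000 bp of one (9.62%, 6.82 to 13.4%), 21 of them nearest to a start of a protein-coding gene and 9 to one of a long non-coding RNA gene. Over all Nutlin-3a peaks the count was 112 of 1219 (9.19%), nearly the same share. The median fold of the 30 was 5.04. In the clustered group the count was 0 of 809, which allows a share of up to 0.371%. By selection the peaks at gene ends are near such starts, 82 of 98.

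The clearest internal start was in PIK3R3, a regulatory subunit gene of phosphoinositide 3-kinase. The widest isolated distal peak, 1170 bp (chromosome 1, 46132617 to 46133786, 6.82-fold, −log10 p 113), spanned listed PIK3R3 starts at 46132629, 46132795 and 46133036, 42208 bp from the outer gene end by its summit. A second, narrower peak beside it (46132390 to 46132581, 3.71-fold) had its summit 116 bp after the nearest of these starts. ATOSA, a gene with 2 internal starts under peaks, had 6.54-fold at 30 bp before one (chromosome 15, 52651864 to 52652296) and 6.48-fold at 196 bp after the other (52679107 to 52679626). ATF7IP, which codes for a cofactor of heterochromatin silencing, likewise had 2 peaks, 6.04-fold with the summit 391 bp before a start (chromosome 12, 14416431 to 14416812) and 3.78-fold at 105 bp before another (14417765 to 14418051).

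Further internal starts lay close to single peaks. The summit was 56 bp after a start of TBL1XR1, a corepressor subunit gene (8.35-fold, 61 bp wide), and 355 bp after one of BRD2, a bromodomain gene (6.17-fold). It was 143 bp before a start of BCAR1 (5.87-fold), 55 bp before one of USP30, a mitochondrial deubiquitinase gene (5.26-fold), and 133 bp before one of SLC43A2, an amino acid transporter gene (5.04-fold). At GBF1 it was 32 bp before the start (4.53-fold). Among non-coding genes, the peak on chromosome 16 (79770439 to 79770955, 5.75-fold, −log10 p 72.7) lay over the facing starts of LINC01229 and MAFTRR, 16 bp after the first and 45 bp after the second, and 169750 bp from MAF, a transcription factor gene.

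**Figure D3:**
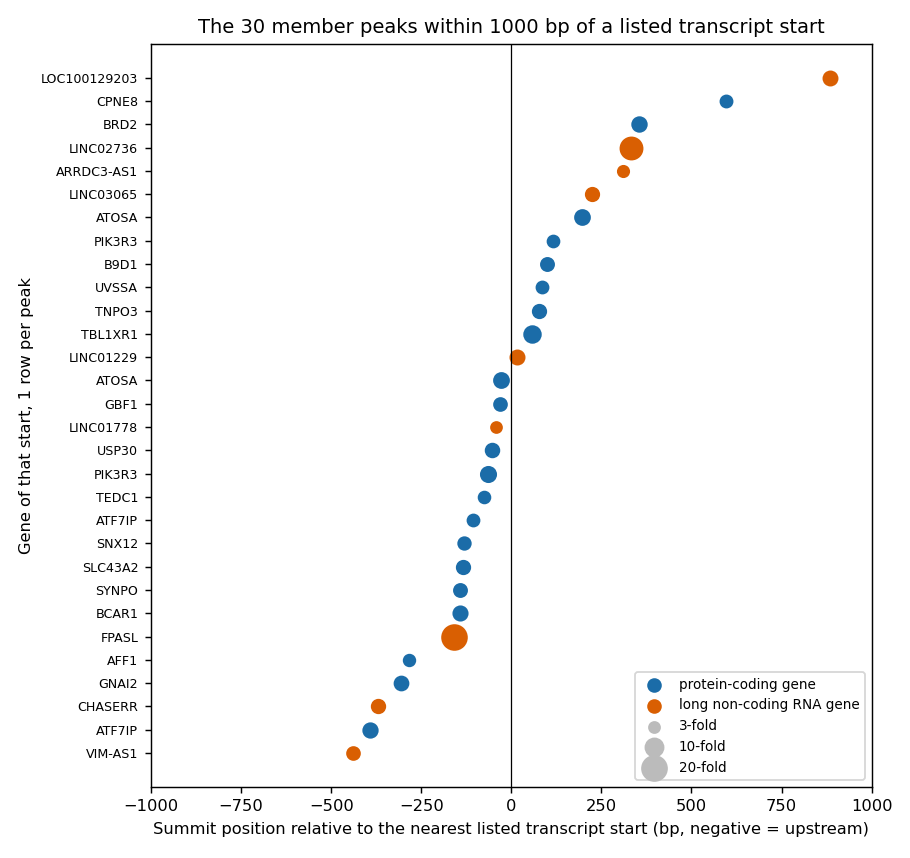
Position of the summit relative to the nearest listed transcript start (bp, negative is upstream) for the 30 isolated distal peaks (member peaks) within 1000 bp of one, 1 row per peak named by the gene of that start, with the area of the dot following fold enrichment and its colour the type of gene. FPASL, 160 bp before its start, and LINC02736, 331 bp after it, have the largest dots.

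An end of a non-coding gene of any kind lay within 1000 bp of 29 of the 324 summits (8.95%, 6.30 to 12.6%), against 67 of all 1234 (5.43%) and 29 of 101 at gene ends (28.7%). These were 22 long non-coding RNA genes, 1 miRNA gene and 6 pseudogenes, of which 3 are annotated as transcribed. Of the 29 peaks, 7 were also nearest to a listed protein-coding start within 1000 bp. The 10 with the largest fold were those at FPASL, LINC02736, GASAL1, MIR3175 and LOC729218, described above, and those at LOC105373043 beside TOB2 (7.65-fold), LOC101929626 at the PIK3R3 start (6.82-fold), LOC105370821 at the second ATOSA start (6.48-fold), LINC01229 (5.75-fold) and LOC100129203 inside SESN3 (5.68-fold). With ends of non-coding genes and listed starts combined, 43 of the 324 peaks were within 1000 bp of an annotated feature of this kind. Peaks on chromosome 8 could be counted by non-coding ends only. The combined share over all Nutlin-3a peaks is not given, so this count does not set the isolated distal peaks apart.

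Peaks near genes of p53 and RFX7 programmes were examined with lists chosen with earlier results of these data known, so their counts are not independent evidence. Of 18 RFX7 target genes, 4 had an isolated distal peak within 50 kb of an end, and 3 of 18 p53 target genes did, against 235 of 20037 protein-coding genes (1.17%). Some RFX7 targets may have been identified with these same libraries. A peak at a gene end was found for 14 of the RFX7 targets and for none of the p53 targets. The share over all protein-coding genes is not given for gene-end peaks. Each gene was placed in 1 list only, with TP53INP1 (2 such peaks) and DDIT4 (1) among the RFX7 targets. These counts therefore do not contrast RFX7 with p53 target genes.

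The 3 p53 targets were BBC3, BTG2 and SESN2. BBC3 had 3 isolated distal peaks, all at least 300 bp wide. Besides the 17.3-fold peak there was one of 5.69-fold (47239338 to 47240047), 6819 bp outside the start end and also inside LOC124904731. Another, of 5.82-fold, was inside BBC3, 2320 bp from that end (47230312 to 47230634). SESN2, which codes for a stress-induced inhibitor of mTORC1, had 8.66-fold at 12165 bp before its start end (chromosome 1, 28246999 to 28247639) and 3.78-fold at 11201 bp before it (28248046 to 28248353). The end of ATP5IF1, which codes for an ATP synthase inhibitor, was nearer to these, at 9253 bp for the first. The BTG2 peak of 10.9-fold lay beyond the far end of the gene, 21932 bp from its start.

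The RFX7 targets were PIK3R3, PIK3IP1, SLC43A2 and CCND1. PIK3IP1, an inhibitor of phosphoinositide 3-kinase, had 7.13-fold (−log10 p 89.4) inside the gene, 1932 bp from its start end (chromosome 22, 31290564 to 31291141). CCND1, the cyclin D1 gene, had 6.71-fold 2347 bp outside its lower-coordinate end (chromosome 11, 69638768 to 69639587) and 4.03-fold at 2545 bp (69638534 to 69638694). In addition, 2 peaks at its gene end were counted among the 101. PIK3R3, PIK3IP1 and SLC43A2 had no isolated peak within 1000 bp of an outer gene end. Of these 3 genes, PIK3R3 and SLC43A2 had their peaks at internal listed starts, as given above, with SLC43A2 1121 bp from its outer end (chromosome 17, 1628709 to 1629030).

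Of 10 restrainers of PI3K, AKT and mTOR signalling outside these lists, SESN3, a sestrin gene, had isolated distal peaks. One of 5.68-fold was inside the gene, 1405 bp from its start end (chromosome 11, 95231047 to 95231421), and one of 4.57-fold was 21862 bp outside that end. Of 4 further TOB and BTG family genes, TOB2 had one, 7.65-fold, 1781 bp outside its start end (chromosome 22, 41448292 to 41448913), together with a peak at its gene end. None of 9 further RFX family and partner genes and none of 5 MYC antagonists had an isolated distal peak within 50 kb.

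**Figure D4:**
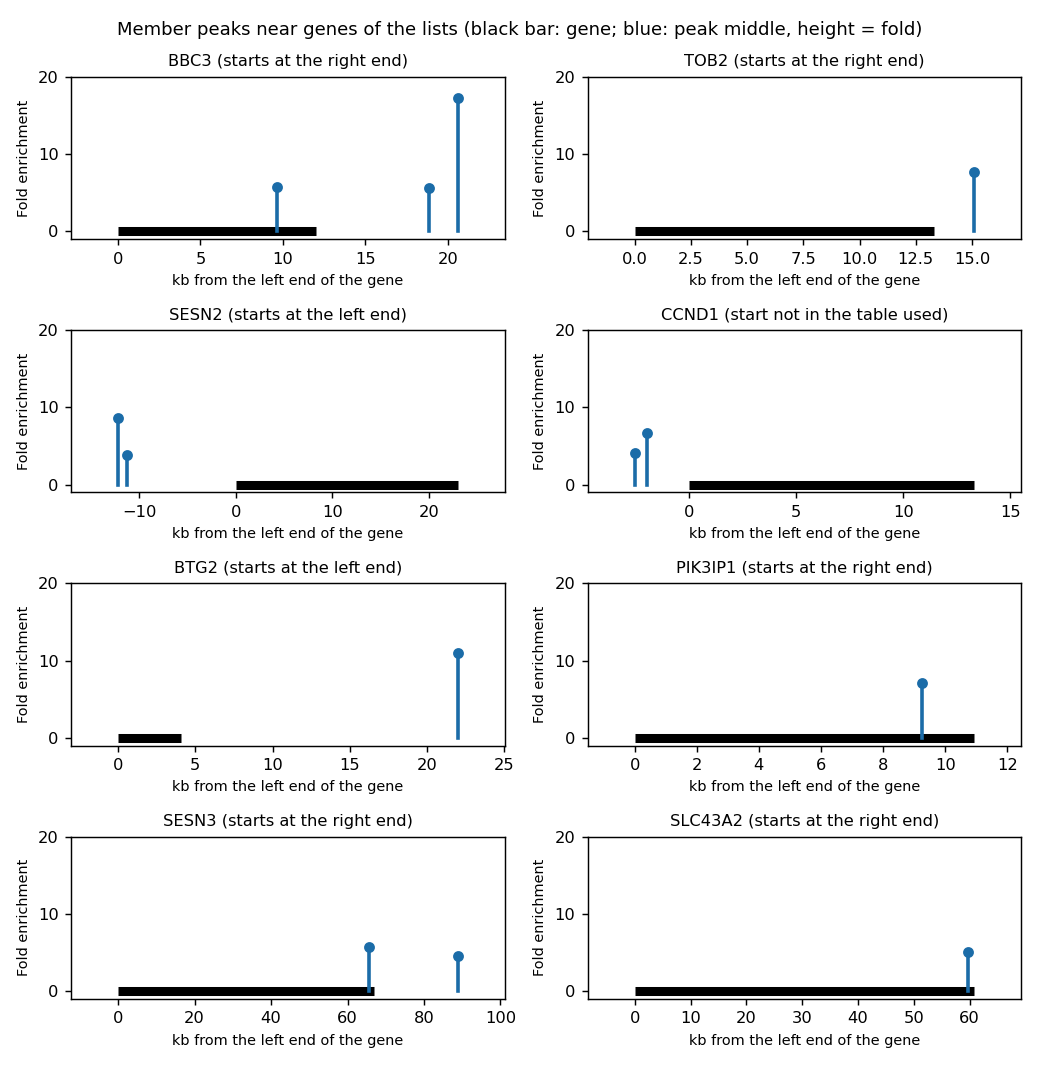
Isolated distal peaks (member peaks, blue, placed at the middle of the peak, height is the authors' fold enrichment) near 8 genes of the lists, each drawn as a black bar, with the distance in kb from the left, lower-coordinate end of the gene on the horizontal axis. BBC3 has 3 peaks up to 17.3-fold, and the peaks of SESN2, BTG2, TOB2 and CCND1 lie outside the gene.

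Companion peaks at gene ends were rare. An isolated gene-end peak lay within 50 kb of 4 of the 324, among them those at CCND1 (2183 and 1985 bp between summits) and TOB2 (1656 bp). The 324 peaks fell into 293 loci when summits within 50 kb were joined, and 269 of these held 1 peak. Of the 24 loci with 2 or more, 8 were in the longest gene-free stretch of a chromosome. Largest were 2 loci of 4 peaks. One was inside DUX4 on chromosome 4 (190177673 to 190181704, 1.78- to 2.24-fold), and the other was near DUX4L20 on chromosome 10 (133687798 to 133689466, 1.45- to 3.13-fold). DUX4 sequences lie in tandem repeats that exist in near-identical copies on both chromosomes, so reads from these copies may not be placed reliably. In each of these loci 2 of 4 peaks were in the DMSO list.

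Of the 324 isolated distal peaks, 34 (10.5%, 7.61 to 14.3%) overlapped a DMSO peak by at least 1 bp, against 27.3% of all Nutlin-3a peaks. At gene ends the count was 1 of 101 (0.990%, 0.175 to 5.40%), and in clusters 302 of 809 (37.3%, 34.1 to 40.7%). For a site without a DMSO peak the signal in DMSO is unknown. A longest gene-free stretch held 66 of the isolated distal peaks (20.4%), against 499 of all 1234 (40.4%). Of the 34 peaks, 22 were among these 66 (33.3%, 23.2 to 45.3%), and 12 were among the other 258 (4.65%, 2.68 to 7.95%). How reliably reads are placed in these stretches was not tested. Of the 54 peaks at least 300 bp wide, 1 was found in the DMSO list, at MAMDC2 on chromosome 9 (70038200 to 70038554, 2.65-fold).

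The 34 peaks found in both lists had low fold and high −log10 p in the Nutlin-3a list. Their median fold was 2.30 (1.45 to 9.02), with 27 of 34 under 3, and their median −log10 p was 31.6. The 290 found with Nutlin-3a alone had medians of 3.78-fold and 10.2. The 5 with the largest fold had 9.02 (chromosome 8, 43938069 to 43938160), 7.74 (chromosome 17, 23560655 to 23560704), 5.18 (chromosome X, 37769886 to 37769973), 4.36 (chromosome 3, 158939043 to 158939129) and 4.34 (chromosome 2, 92270859 to 92270953). Of these, the peak on chromosome X lay 10163 bp from CYBB, an NADPH oxidase subunit gene, and the one on chromosome 3 lay 109328 bp from MFSD1, a transporter gene. The other 3 lay 572899 to 1856066 bp away from any protein-coding end. The DMSO list gave fold enrichments of 2.99, 2.15, 5.58, 6.13 and 2.63 at these sites in the same order, on a scale whose relation to the Nutlin-3a list is unknown.

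The 5 peaks farthest from any protein-coding end were 2951014 to 3294983 bp away. They lay on chromosome 15 (17000623 to 17000672, 17064272 to 17064421 and 17080569 to 17080778), chromosome 16 (37623935 to 37623984) and chromosome 18 (17995770 to 17995920), at 1.94- to 2.82-fold. All 5 were in the longest gene-free stretch of their chromosome, and 1 of them was found in the DMSO list. No isolated distal peak lay on chromosome 21. Chromosome 10 held the most, 35, and chromosome Y held 1. Counts of all Nutlin-3a peaks by chromosome are not given here, so these numbers do not show a concentration of binding.

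Because distance and neighbours chose the peaks, those next to the limits are given as a description. The 5 nearest to a protein-coding end were at ADAMTSL4 (1052 bp, 6.57-fold), SLC43A2 (1121 bp), TNPO3 (1160 bp, 5.04-fold), TEDC1 (1316 bp, 3.60-fold) and RAP2A (1322 bp). Just within the limit were peaks at TOB1 (834 bp, 3.75-fold), REV3L (744 bp, 3.26-fold), LOC124904106 (697 bp, 4.89-fold), GTF2I (648 bp, 4.35-fold) and DYRK1B (629 bp, 6.69-fold). No other region lay within 500 kb for 171 of the 324 peaks, and 23 had 4, the most allowed, with a median of 3.20-fold. The 7 peaks with 5 other regions, just outside, had a median of 4.01-fold.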

How the data were processed

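Peak lists were deposited by the authors in the narrowPeak layout, 1 for each treatment, with these values per peak: score, fold enrichment, and p and q as −log10. The values were used as deposited, and what the fold is relative to is not given in the sources used here. The build hg38 and MACS2 2.2.7.1 are named, without a role, per the submitters' processing notes. Aligner, control and the way replicates were combined are not given there. The smallest deposited −log10 q was 1.31 with Nutlin-3a and 1.38 with DMSO.

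Gene ends came from 20037 protein-coding and 39642 other RefSeq genes of GRCh38.p14. The summit was the peak start plus the summit offset. For the neighbour count both lists were pooled and overlapping peaks merged. The planned motif search in summit windows needs a genome and was run on RefSeq promoter windows instead. Counting, distance and overlap functions were tested on simulated peaks. No test was run, since peaks are not replicates. Shares carry 95% Wilson intervals, which treat peaks as independent and cover counting error only. The count of 0 of 809 clustered peaks at a listed start is given with the share that a count of 3 stands for. Other counts of 0 carry no such share. Named peaks are the 10 largest by fold, 5 by −log10 p, the 5 largest shared, those near list genes, the 5 nearest to and farthest from gene ends, 10 at non-coding ends and 6 with the closest motif match; those at internal starts were chosen after their values were seen. Of the 10 largest by fold, 1 is not reported here. Peaks and lists were chosen with earlier results of these data known. Python 3.11.15, pandas 2.3.3 and scipy 1.17.1 were used.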

Additional observations from a re-analysis of the deposited data

How the results depend on the processing

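No paired analysis was possible because the peak lists hold 1 value per treatment, without replicates, and leaving out replicates was not run for the same reason. The motif searches in whole peaks and in other windows around the summit were not run. Of 86 values under alternatives, 66 stayed within the interval of the reported one, or within 1.5 times for the number of peaks. Counts at listed transcript starts, and values outside the longest gene-free stretches, were chosen after seeing the data.

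The number of isolated distal peaks ranged up to 429, and was 191 with −log10 q of at least 5, where their median fold was 4.30, 47.6% were over 100 kb from a protein-coding end and 14.1% were at a listed start. With clusters from 10 other regions the median fold was 3.46, 21.7% were inside a protein-coding gene and 60.6% were over 100 kb away. The share in the DMSO list was 6.59% with clusters from 3 regions, 6.79% with neighbours within 1000 kb, and 4.65% outside gene-free stretches, where 35.3% were inside a protein-coding gene and 42.2% over 100 kb away. The share over 100 kb away was 59.9% with neighbours within 250 kb, and 61.7% with summits over 5000 bp from a gene end, where 21.6% were inside a gene. Limits of 50 and 200 kb in place of 100 kb gave 63.6 and 41.7%. Within 5000 bp of a non-coding end lay 21.9%, and within 250 bp of a listed start 6.41%. GTTNCC in place of GTTGCC occurred at 47.8% of 23 peaks with a window. Counted by window, it was in 12 of 28 (42.9%), against 45.4% of all windows. Beyond the changed limit itself, the cause was not tested. Unknown depth limits every count.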
